A study of Homo sapiens with 6 samples.

Results

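Kinesins are motor proteins that use ATP to move along microtubules or to take them apart, and their genes were chosen here by name alone: every row of the deposited gene count table whose symbol was KIF with a number and at most a letter and digit, or KIFC1 to KIFC3. The rule found 42 kinesin genes among 36517 genes. Lists by known role gave 12 mitotic kinesins and 15 transport kinesins, and the 15 on neither list were called other kinesins. The other kinesins are therefore not a class by role. They include KIF2A, which acts at spindle poles, and KIF4B, a near-identical copy of the mitotic KIF4A. Messenger RNA was measured at day 3 in the line MDA-MB-453, which was derived from a human breast carcinoma and is of luminal type. The control group (3 libraries) carried a lentivirus with the negative-control hairpin shNC, and the shtRF group (3 libraries) carried a lentivirus with the hairpin shtRF-1-Ser against tRF-1-Ser, a small RNA cut from the trailer of a serine tRNA precursor. Both groups therefore carried a lentivirus and a hairpin, and 1 hairpin against tRF-1-Ser in 1 cell line was sequenced. Whether the 3 libraries of a group came from separate transductions is not stated, so the p-values measure only the spread between these libraries. Small RNAs are not captured by mRNA libraries, and the knockdown itself was not checked with these counts.

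The 6 libraries held 63541413 to 78917459 counts, of which 0.327% to 0.353% fell on kinesin genes. All 8 luminal breast epithelial markers used were detected, with a summed level of 4296 to 4345 CPM (counts scaled to a library total of 1e+06) in the control libraries and 5430 to 5912 CPM in the shtRF libraries. KRT8, KRT18 and CDH1 were higher and GATA3 and ERBB2 lower in the shtRF libraries. The leukocyte marker PTPRC averaged 0.0323 CPM in control and 0.0194 CPM in shtRF, and the summed endothelial markers stayed between 0.172 and 0.393 CPM. The summed fibroblast markers were 29.8 to 35.6 CPM in control and 20.6 to 21.4 CPM in shtRF, nearly all of it COL1A1. Summed leukocyte markers were 4.25 to 5.36 CPM in control and 5.72 to 8.10 CPM in shtRF, nearly all of it CD68. Of the exonic bases of CD68, 85.8% are shared with RP11-186B7.4 on the same strand, which had 149 CPM, so its counts are uncertain. The part of these shifts in the kinesin values was not tested.

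Mitotic kinesins build the spindle, move and align the chromosomes on it and help to split the cell. Their genes are known to be transcribed mainly in the G2 and M phases, under promoters that often hold a CCAAT box and a cell cycle gene homology region (CHR). Transport kinesins carry vesicles, organelles and protein complexes in cells at any stage of the cycle, mostly with light chains or adaptor proteins. Most of these motors move towards the plus ends of microtubules, but the class used here also holds the minus-end-directed KIFC3. In a dividing tumour line both kinds of motor are expected to be present.

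Promoters are shown first because the mitotic class shared sequence features that the choice by name did not use. In RefSeq promoters (GRCh38.p14, 250 bases before to 50 bases after each annotated start), the CCAAT box, CCAAT, was found on either strand in 34.6% of 35116 windows. The core of the CHR, TTTGAA, was found on either strand in 15.2%, and 5.9% held both. Of the 12 mitotic kinesins, 10 had a CCAAT box, 9 had TTTGAA and 8 had both. Of 15 transport kinesins, 11 had a promoter in the table, of which 4 held CCAAT and 1, KIF5B, held TTTGAA together with CCAAT. Of 15 other kinesins, 11 had a promoter, and 1, KIF4B, held both. KIF4B is a retrocopy that is nearly identical to KIF4A. In no mitotic kinesin did a CCAAT match overlap a TTTGAA match, and a match is a description of the window, not a shown binding site. The 6 sequences below run from 100 bases before to 10 bases after the RefSeq start, in the direction of transcription. They stand for 4 mitotic kinesins whose counts did not pass the test and for the pair with the largest estimated falls. The fall of KIFC1 was hardly larger than those of KIF20A and KIF15, which are not shown and lack 1 of the motifs each. All 6 sequences shown hold both motifs, so they do not represent the whole class. Capitals mark CCAAT or its reverse complement ATTGG, and TTTGAA or its reverse complement TTCAAA.
KIF4A, chrX:70290004-70290113, plus strand: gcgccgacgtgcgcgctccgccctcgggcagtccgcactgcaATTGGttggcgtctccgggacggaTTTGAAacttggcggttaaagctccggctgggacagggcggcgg
KIF11, chr10:92593030-92593139, plus strand: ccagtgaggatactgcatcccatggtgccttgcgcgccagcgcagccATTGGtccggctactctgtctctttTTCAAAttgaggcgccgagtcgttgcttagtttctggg
KIF18A, chr11:28108147-28108256, minus strand: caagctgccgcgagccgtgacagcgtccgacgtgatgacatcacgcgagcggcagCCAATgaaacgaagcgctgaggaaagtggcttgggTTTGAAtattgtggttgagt
KIF23, chr15:69414249-69414358, plus strand: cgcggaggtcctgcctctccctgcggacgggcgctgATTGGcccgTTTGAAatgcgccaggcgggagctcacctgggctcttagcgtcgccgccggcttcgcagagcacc
KIF14, chr1:200620742-200620851, minus strand: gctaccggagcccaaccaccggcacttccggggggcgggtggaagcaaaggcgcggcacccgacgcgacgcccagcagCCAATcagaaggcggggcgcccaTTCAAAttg
KIFC1, chr6:33391723-33391832, plus strand: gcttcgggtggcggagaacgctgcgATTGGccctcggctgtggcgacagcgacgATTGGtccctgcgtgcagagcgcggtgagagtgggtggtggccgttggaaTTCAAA
Counted from the start, with -1 as the base before it, TTTGAA began at -34 in KIF4A, -28 in KIF11, -10 in KIF18A and -55 in KIF23. In KIF14 and KIFC1 it lay just after the RefSeq start, at 2 and 5. The count table places the starts of these genes at other bases, so the positions hold for the RefSeq starts alone. Beside the 6 shown, both motifs were held by KIF18B, which also did not pass the test, and by KIF20B, which fell. The remaining mitotic kinesins all fell: KIF20A and KIF22 lacked TTTGAA, KIF15 lacked CCAAT and KIF2C lacked both. Whether the motifs go with the changes was not tested.

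To learn how the motors changed when tRF-1-Ser was knocked down, shtRF libraries were compared with control libraries. Mitotic kinesins fell or did not pass the test, whereas transport kinesins split into 6 that rose and 3 that fell. Of the 42 genes, 35 had enough counts to be tested, and of these 7 were higher and 13 lower in shtRF at an adjusted p under 0.05 (edgeR's quasi-likelihood test with Benjamini-Hochberg adjustment over 19628 genes, used for every adjusted p given here). That is 57.1% of the tested kinesins, where 39.5% of all tested genes were called, 20.6% higher and 18.9% lower. A change of over 2-fold was called in 3 kinesins, all of them higher, against 5.77% of all tested genes (2.66% higher and 3.11% lower). In 21 of the 35 the 3 libraries of a group all lay above those of the other, as they did in 48.7% of all tested genes. The median log2 fold change (shtRF over control) over all tested genes was -0.0025. Its median absolute size was 0.26 over all tested genes and 0.30 in the tested kinesins (mitotic 0.24, transport 0.50). A larger share called therefore need not mean larger changes. In these bulk libraries, fewer cells in a given phase and less RNA per cell cannot be told apart.

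**Figure D1:**
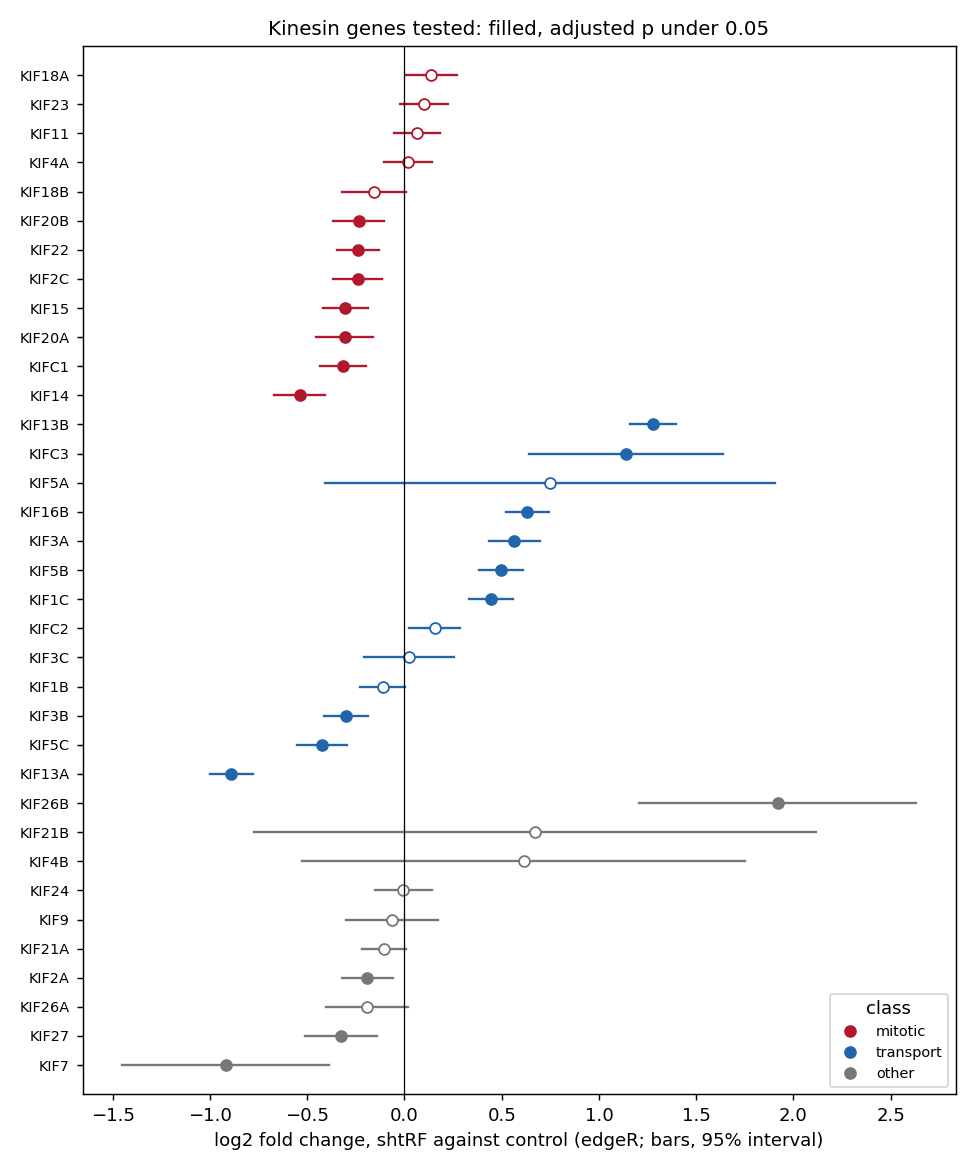
Log2 fold change (shtRF over control) with its 95% confidence interval for the 35 tested kinesin genes, grouped as mitotic, transport and other, with filled points for those called at an adjusted p under 0.05. The 12 mitotic kinesins lie between -0.54 and 0.14, and the transport kinesins reach from -0.89 for KIF13A to 1.28 for KIF13B.

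Among the mitotic kinesins, 7 of 12 fell (58.3%, where 18.9% of all tested genes were lower), none rose and 5 were not called. Their median log2 fold change was -0.24. All falls were smaller than 2-fold. KIF14, a motor of cytokinesis that works with citron kinase, fell the furthest. It lies at chr1:200551497-200620734 (GRCh38, minus strand). The KIF14 level was 53.0, 56.3 and 63.1 CPM in the control libraries and 38.5, 41.0 and 39.2 CPM in the shtRF libraries. All 3 shtRF libraries lay below all 3 controls, and the log2 fold change was -0.54 ± 0.06 (SE, adjusted p = 5.53e-07), a level 1.45-fold higher in control.

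KIFC1, a minus-end-directed motor that cross-links spindle microtubules and gathers extra centrosomes, lies at chr6:33391536-33409924. It was at 183, 173 and 189 CPM in control and 138, 156 and 143 CPM in shtRF (log2 fold change -0.31 ± 0.06, adjusted p = 1.19e-04). The groups did not overlap. Of its exonic bases, 12.7% also lie in the pseudogene RPL12P1 on the other strand, which had 0.253 CPM. KIF15, which helps to keep the spindle bipolar, was at 152, 153 and 149 CPM in control and 116, 132 and 120 CPM in shtRF (-0.30 ± 0.06, adjusted p = 1.38e-04). Here, too, every shtRF library was below every control.

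KIF22 and KIF2C fell as well. KIF22, which pushes chromosome arms away from the poles, was at 186, 181 and 181 CPM in control and 157, 159 and 148 CPM in shtRF (-0.24 ± 0.05, adjusted p = 8.93e-04). The groups were apart, and 13.0% of KIF22's exonic bases are shared with AC009133.21 on the other strand, for which the log2 fold change was -0.23 at a mean of 14.2 CPM. KIF2C, which removes tubulin from microtubule ends at centromeres, was at 110, 113 and 129 CPM in control and 94.9, 104 and 98.6 CPM in shtRF (-0.24 ± 0.06, adjusted p = 0.00307). Its highest shtRF library lay below its lowest control.

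KIF20A and KIF20B, both motors of late mitosis, were also lower in shtRF. KIF20A, which brings the chromosomal passenger complex to the central spindle, was at 71.2, 77.3 and 90.0 CPM in control and 65.3, 67.7 and 59.9 CPM in shtRF (-0.31 ± 0.07, adjusted p = 0.0014). KIF20B, which takes part in the completion of cytokinesis, was at 190, 215 and 231 CPM in control and 176, 189 and 177 CPM in shtRF (-0.24 ± 0.06, adjusted p = 0.00481). For both genes the groups were apart, by a narrow margin for KIF20B, and control replicate 3 was the highest library. Control replicate 3 was also the highest control for most of the other mitotic kinesins. Without it the falls were smaller, with log2 fold changes of -0.21 for KIF20A and -0.17 for KIF20B. Each of the 7 falls was called in every fit that left out 1 library.

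The 5 remaining mitotic kinesins did not pass the test. KIF11, the motor that pushes the spindle poles apart, was at 197, 191 and 214 CPM in control and 201, 220 and 208 CPM in shtRF (log2 fold change 0.06, 95% confidence interval -0.06 to 0.18). KIF4A, a chromosome-bound motor that sets the length of the central spindle with PRC1, was at 112, 118 and 129 CPM in control and 115, 128 and 120 CPM in shtRF (0.02, interval -0.10 to 0.14). In both genes the groups overlapped, and the intervals leave room for changes of either sign, in KIF4A of up to 0.14 on the log2 scale. For KIF4A the estimate was below 0 in 3 alternative fits, with upper quartile scaling, without control replicate 1 and without shtRF replicate 2.

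KIF23, which forms the centralspindlin complex with RACGAP1, was at 106, 112 and 119 CPM in control and 117, 129 and 116 CPM in shtRF (0.10, interval -0.02 to 0.22). KIF18B, which trims microtubule plus ends, was at 18.8, 19.5 and 21.2 CPM in control and 19.0, 18.3 and 16.0 CPM in shtRF (-0.16, interval -0.32 to 0.0068). The groups overlapped in both. KIF18A, which limits the length of kinetochore microtubules, was at 33.1, 37.4 and 37.8 CPM in control and 39.6, 41.2 and 38.5 CPM in shtRF. Its groups did not overlap, with shtRF above control, but the adjusted p was 0.0876 (0.14, interval 0.0077 to 0.27). Without control replicate 3 it was 0.18 with an adjusted p of 0.0422, which made KIF18A the only mitotic kinesin called higher in any fit.

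**Figure D2:**
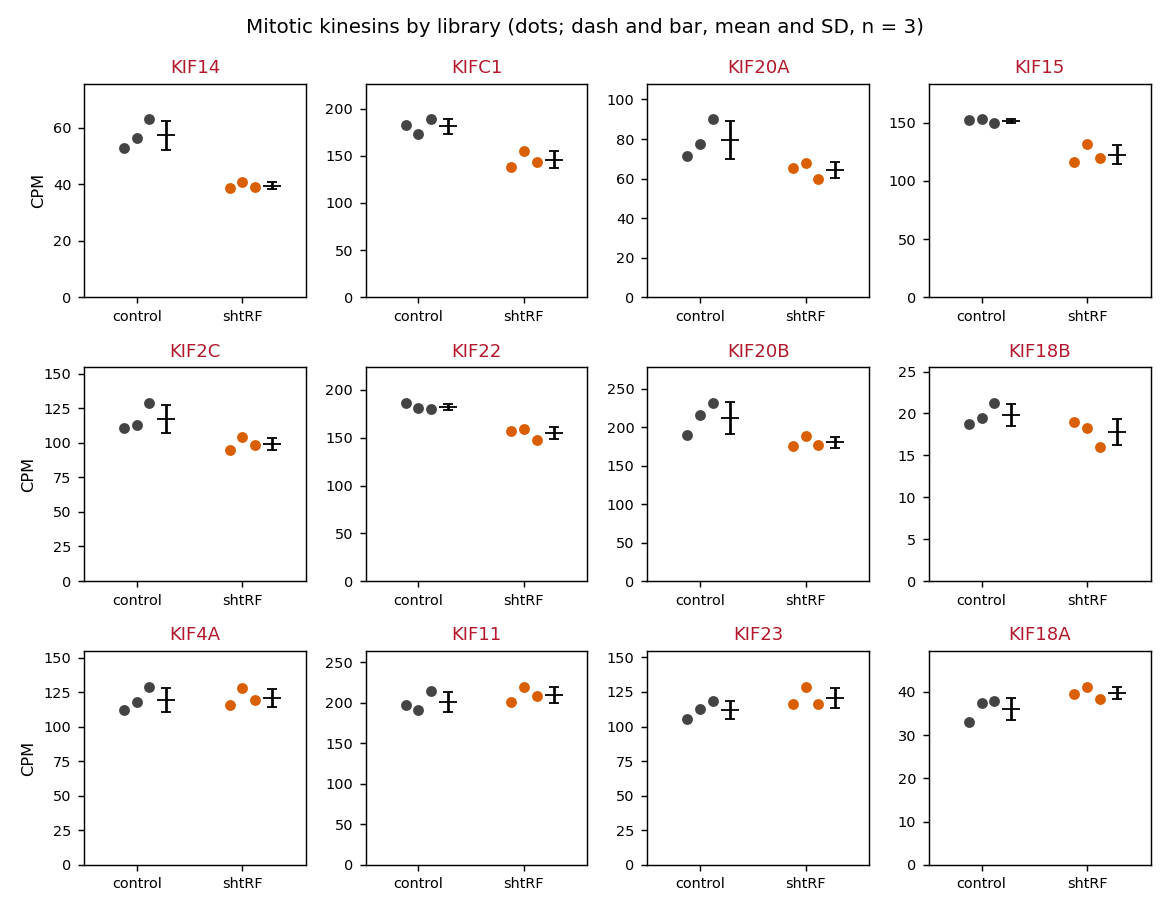
Level in CPM of each of the 12 mitotic kinesins in the 6 libraries, with points for libraries and, beside them, a dash and bar for the mean and SD of 3 libraries per group. The 7 called genes, such as KIF14 with 53.0 to 63.1 CPM in control and 38.5 to 41.0 CPM in shtRF, have no overlap between the groups, while KIF4A, KIF11, KIF18B and KIF23 overlap.

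Transport kinesins moved in both directions. Of 15 genes 13 were tested, of which 6 rose, 3 fell and 4 were not called (69.2% called, against 39.5% of all tested genes), with a median log2 fold change of 0.45. This median was 0.19 without shtRF replicate 2, in which KIF5A, a gene of few counts, was highest. It was also lower in fits whose filter left KIF5A untested. KIF13A, which carries vesicles with mannose 6-phosphate receptors through the AP-1 adaptor and also moves recycling endosomes, fell the furthest of all kinesins above 2 CPM. The study picked KIF13A partly from splicing in these same libraries. The gene lies at chr6:17759183-17987623 (minus strand). KIF13A was at 81.9, 82.0 and 79.8 CPM in control and 42.9, 45.5 and 43.0 CPM in shtRF. The groups were far apart for their spread, with a log2 fold change of -0.89 ± 0.05 (adjusted p = 1.78e-11) and a level 1.85-fold higher in control.

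KIF13B, the closest relative of KIF13A and a motor that binds the polarity protein DLG1, moved the other way. It was at 23.9, 23.8 and 23.6 CPM in control and 56.7, 56.6 and 59.6 CPM in shtRF. The log2 fold change was 1.28 ± 0.06 (adjusted p = 1.10e-13), a 2.42-fold rise and the only change of over 2-fold among kinesins above 2 CPM. Of its exonic bases, 7.78% are shared with CTD-2647L4.5 on the other strand, which had 0.473 CPM. Per kilobase of exon, KIF13A made up 77.4%, 77.5% and 77.1% of the KIF13A and KIF13B level in control and 43.1%, 44.6% and 41.9% in shtRF. Their summed level was 9.61 RPKM (counts per kilobase of exon, scaled to a library total of 1e+06) in control and 8.95 RPKM in shtRF.

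Some kinesin-1 and kinesin-2 heavy chains also moved apart within their families. The pairs shown hold genes called in opposite directions, while KIF5A and KIF3C of the same families were not called. KIF5B, the kinesin-1 heavy chain found in most tissues, rose from 729, 742 and 760 CPM to 1009, 1089 and 1050 CPM (0.50 ± 0.05, adjusted p = 1.56e-07). KIF5C, a kinesin-1 heavy chain best known from neurons, was at 59.0, 57.8 and 65.7 CPM in control and 48.1, 43.6 and 44.2 CPM in shtRF (-0.42 ± 0.06, adjusted p = 9.18e-06). Neither gene had overlapping groups, and the KIF5C share of the KIF5C and KIF5B level per kilobase went from 4.95% ± 0.249 to 2.69% ± 0.238 (SD, n = 3). KIF3A and KIF3B form the kinesin-2 motor of intraflagellar transport together with KIFAP3. KIF3A rose from 104, 93.2 and 105 CPM to 135, 157 and 154 CPM (0.57 ± 0.06, adjusted p = 2.16e-07). KIF3B was at 99.3, 92.6 and 88.0 CPM in control and 75.4, 76.4 and 75.4 CPM in shtRF (-0.30 ± 0.06, adjusted p = 1.39e-04). The groups were apart for both chains. Per kilobase, KIF3B was 51.1% ± 2.17 of the 2 chains in control and 36.5% ± 1.78 in shtRF (SD, n = 3), and KIFAP3 was not called (0.11, adjusted p = 0.369).

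KIF16B and KIF1C, both of the kinesin-3 family like KIF13A and KIF13B, rose. KIF16B, which binds early endosomes through a lipid-binding domain, went from 76.5, 71.9 and 79.0 CPM to 115, 119 and 118 CPM (0.63 ± 0.05, adjusted p = 3.86e-09). KIF1C, a vesicle motor, went from 238, 222 and 228 CPM to 298, 315 and 323 CPM (0.45 ± 0.05, adjusted p = 7.53e-07). Every shtRF library was above every control for both. KIFC3, a minus-end-directed motor, is named after its values were seen, since its level was under 2 CPM. KIFC3 was at 0.922, 0.569 and 0.864 CPM in control and 1.42, 1.92 and 1.84 CPM in shtRF (1.14 ± 0.24, adjusted p = 5.95e-04). The 4 tested transport kinesins that were not called had log2 fold changes of -0.11 (KIF1B), 0.02 (KIF3C), 0.16 (KIFC2) and 0.75 (KIF5A). The adjusted p of KIFC2 was 0.0547, and 17.8% of its exonic bases are shared with FOXH1. KIF1A and KIF17, best known from neurons, had too few counts to be tested.

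**Figure D3:**
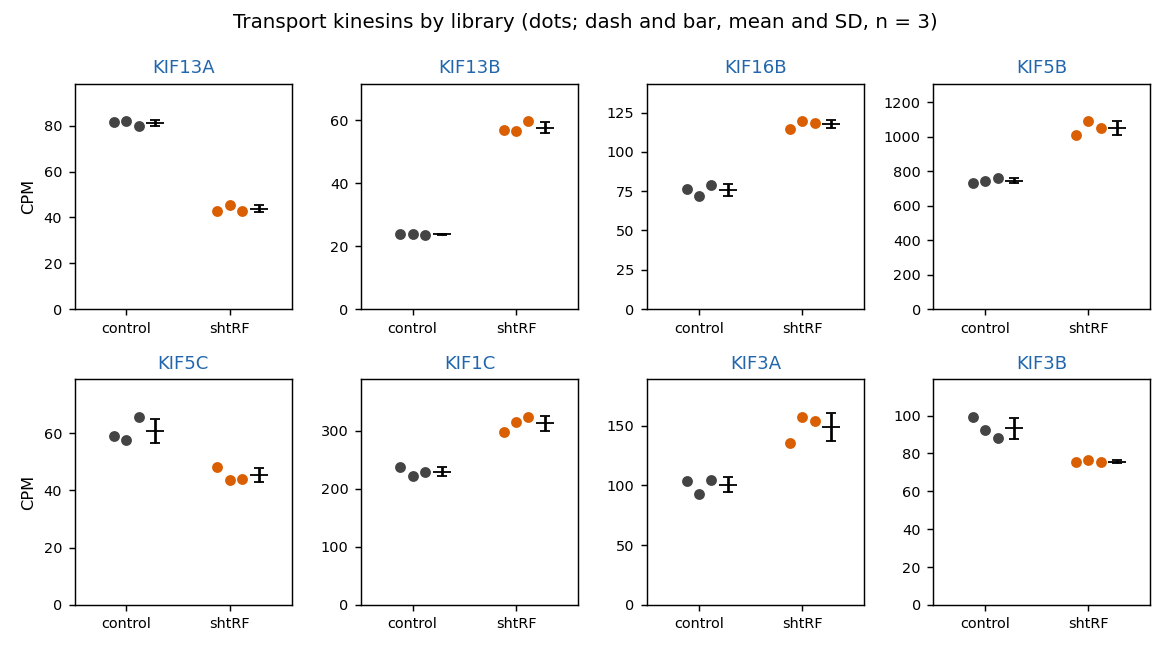
Level in CPM of 8 transport kinesins in the 6 libraries, with points for libraries and, beside them, a dash and bar for the mean and SD of 3 libraries per group. KIF13A lies at 79.8 to 82.0 CPM in control and 42.9 to 45.5 CPM in shtRF, while KIF13B lies at 23.6 to 23.9 CPM and 56.6 to 59.6 CPM.

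Part of the KIF13A coding sequence is skipped in some transcripts, and the study designed PCR primers around this exon. It is shown because gene counts cannot separate the isoforms. Exon 26 of KIF13A is at chr6:17789872-17789910 (GRCh38, minus strand), is 39 bases long and adds 13 codons. It is present in 4 of 8 GENCODE protein-coding transcripts that span this place. The sequence between and including the primers is given with the exon in capitals.
KIF13A primer product: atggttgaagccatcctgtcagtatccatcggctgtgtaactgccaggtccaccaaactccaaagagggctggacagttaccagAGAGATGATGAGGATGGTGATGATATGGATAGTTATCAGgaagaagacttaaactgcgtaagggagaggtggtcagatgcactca
The product is 169 bases with the exon and 130 bases without it. The exon makes up 0.351% of the 11126 exonic bases over which KIF13A reads were counted. The fall of KIF13A counts therefore describes the sum of its isoforms, and inclusion of the exon was not measured here.

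Of the 15 other kinesins, 10 were tested, of which 1 rose, 3 fell and 6 were not called, with a median log2 fold change of -0.08. The 40.0% called is near the 39.5% of all tested genes. KIF27, a relative of KIF7 known from motile cilia, was at 14.8, 14.7 and 13.5 CPM in control and 10.8, 12.9 and 10.5 CPM in shtRF (-0.33 ± 0.09, adjusted p = 0.00584). The groups were apart, and 13.1% of its exonic bases are shared with RP11-575L7.4 on the other strand, for which the log2 fold change was -0.58. KIF2A, which removes tubulin at spindle poles, was at 45.7, 48.9 and 50.5 CPM in control and 46.2, 41.0 and 40.0 CPM in shtRF (-0.19 ± 0.06, adjusted p = 0.0207). Its groups overlapped, and the call was lost without control replicate 3 (adjusted p = 0.0719), without shtRF replicate 2 (0.105) or without shtRF replicate 3 (0.141).

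The other pair of called genes had under 2 CPM and was chosen after the values were seen. KIF7, a regulator of Hedgehog signalling at the tip of the primary cilium, was at 1.77, 1.28 and 1.18 CPM in control and 0.598, 0.903 and 0.726 CPM in shtRF (-0.92 ± 0.26, adjusted p = 0.00639). Of its exonic bases, 11.8% are shared with TICRR, which was at 32.8 CPM with a log2 fold change of -0.52. KIF26B, a member of a kinesin family without motor activity, was at 0.430, 0.146 and 0.476 CPM in control and 1.07, 1.50 and 1.42 CPM in shtRF (1.92 ± 0.34, adjusted p = 1.04e-04). The groups did not overlap for either gene, and both rest on few counts. KIF4B, KIF9, KIF21A, KIF21B, KIF24 and KIF26A were not called, with log2 fold changes from -0.19 to 0.67. Reads of KIF4B are uncertain because of its likeness to KIF4A. KIF2B, KIF6, KIF12, KIF19 and KIF25 were not tested. None of the 7 untested kinesins had more than 10 counts in any library.

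Per kilobase of exon, the kinesins covered a wide range of levels. KIF5B was the highest in both groups, at 129 ± 2.35 RPKM in control and 175 ± 2.58 RPKM in shtRF (SD, n = 3). In control it was followed by KIFC1 (55.2 ± 2.12 RPKM), KIF22 (43.1 ± 0.810 RPKM) and KIF11 (42.0 ± 2.26 RPKM), of which KIF22 and KIF11 did not differ beyond their spread. KIF2C, KIF20B and KIF15 came next at 32.7 ± 2.63, 31.6 ± 3.01 and 29.2 ± 0.550 RPKM. KIF20B overlapped both of the others in its control libraries, whereas every library of KIF2C lay above every library of KIF15. KIF14 was at 8.04 ± 0.686 RPKM, KIF13A at 7.43 ± 0.158 RPKM and KIF13B at 2.18 ± 0.0255 RPKM in control. The mitotic kinesins summed to 319 ± 13.8 RPKM in control and 274 ± 8.16 RPKM in shtRF, a level that fell in every shtRF library below every control. Control replicate 3 had the highest mitotic sum, at 335 RPKM against 308 and 315 RPKM in control replicates 1 and 2. The transport kinesins summed to 234 ± 1.53 RPKM in control and 294 ± 2.59 RPKM in shtRF, most of it KIF5B. All kinesins together were at 584 ± 15.3 RPKM in control and 595 ± 9.26 RPKM in shtRF, with overlapping groups. These sums, made without the library scaling factors used for CPM, describe the classes and were not tested.

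**Figure D4:**
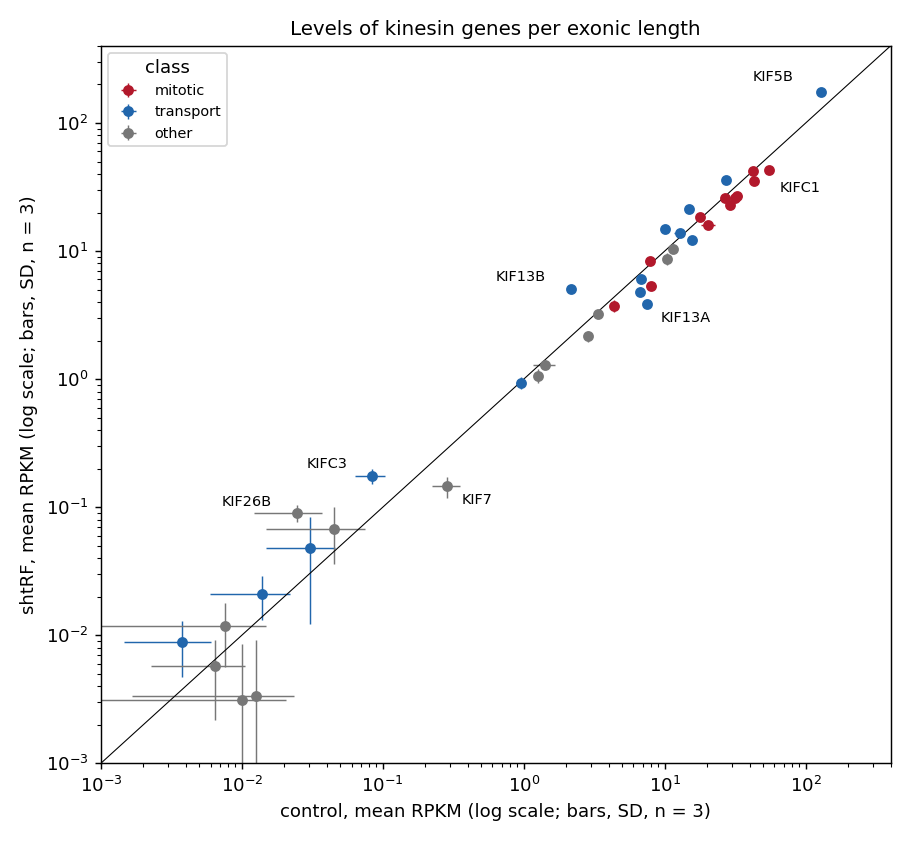
Mean level per kilobase of exon (RPKM, log axes, bars show the SD of 3 libraries) of kinesin genes in control on the horizontal and shtRF on the vertical axis, with the line of equal level. KIF5B is the highest at 129 RPKM in control and 175 RPKM in shtRF, KIF13A lies below the line and KIF13B above it. KIF2B and KIF19, at 0 in control, are not drawn.

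Lists of proteins that work with kinesins were counted in the same fit. The genes named from each are mainly those with the largest called changes above 2 CPM, with the mean ± SD of 3 libraries. Light chains and adaptors link kinesins to their cargo, and of 20 genes tested 7 rose and 1 fell (median log2 fold change 0.15). The 40.0% called is near the 39.5% of all tested genes, of which 20.6% were higher and 18.9% lower. FYCO1, which ties late endosomes and autophagosomes to kinesin-1, rose from 210 ± 9.91 to 359 ± 15.9 CPM (0.77, adjusted p = 2.71e-10). KIF1BP, which binds several kinesins and keeps them off microtubules, rose from 62.8 ± 1.94 to 92.9 ± 3.02 CPM (0.56, adjusted p = 1.97e-08). The kinesin light chain KLC2 rose from 81.5 ± 1.46 to 119 ± 1.45 CPM (0.55, adjusted p = 1.41e-08). PPFIA1, a scaffold protein of the liprin family, rose from 462 ± 4.83 to 561 ± 15.0 CPM (0.28, adjusted p = 1.46e-04). The 1 gene that fell was the light chain KLC3, from 2.45 ± 0.490 to 1.35 ± 0.108 CPM (-0.86, adjusted p = 9.80e-04), chosen after its values were seen, and 14.6% of its exonic bases are shared with ERCC2.

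Cytoplasmic dynein moves cargo towards the minus ends, against most kinesins. Of 23 tested genes of dynein and dynactin, 11 rose and 3 fell (median 0.13), so that 60.9% were called against 39.5% of all tested genes. Their median absolute log2 fold change was 0.24, against 0.26 over all tested genes. The dynein subunit DYNC1LI1 rose from 150 ± 7.90 to 247 ± 16.0 CPM (0.72, adjusted p = 2.14e-09) and the dynein regulator PAFAH1B1 (LIS1) from 48.0 ± 1.65 to 72.5 ± 6.02 CPM (0.60, adjusted p = 7.62e-08). NDE1, a partner of LIS1, fell from 46.2 ± 1.25 to 32.2 ± 1.29 CPM (-0.52, adjusted p = 2.55e-07). Of the exonic bases, 12.4% of PAFAH1B1 are shared with an overlapping gene and 13.9% of NDE1 with MYH11. The cargo adaptor BICD1 showed the largest change of the list, from 5.98 ± 0.816 to 1.08 ± 0.301 CPM (-2.46, adjusted p = 2.46e-10).

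The tubulin list, of the alpha- and beta-tubulins of the track and the gamma-tubulins, gave 3 genes that rose and 5 that fell of 13 tested (median -0.19). The share called was 61.5%, against 39.5% of all tested genes, and the median absolute log2 fold change was 0.38, against 0.26. TUBB fell from 319 ± 13.1 to 238 ± 3.34 CPM (-0.42, adjusted p = 1.03e-06) and TUBB6 from 64.6 ± 4.48 to 51.3 ± 1.98 CPM (-0.34, adjusted p = 1.09e-04). The gamma-tubulins, which start new microtubules, rose: TUBG1 from 34.3 ± 4.37 to 51.4 ± 2.31 CPM (0.58, adjusted p = 1.33e-06) and TUBG2 from 16.5 ± 0.681 to 22.7 ± 1.02 CPM (0.46, adjusted p = 2.30e-05). Among the alpha- and beta-tubulins only TUBB2B rose, at a mean of 0.653 CPM (1.47, adjusted p = 0.00131), and all 5 falls were in these. Of the exonic bases, 16.0% of TUBB are shared with XXbac-BPG252P9.9 and 20.3% of TUBB6 with AFG3L2. Tubulin genes have near-identical copies, and how reads were shared among them is not stated. Without control replicate 3 the tubulin calls were 5 higher and 2 lower.

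The mitotic spindle and cytokinesis list moved mostly in the direction of the mitotic kinesins: 15 of 29 genes fell and 2 rose (median -0.16), with 58.6% called against 39.5% of all tested genes. The changes were not larger than usual, with a median absolute log2 fold change of 0.21 against 0.26 over all tested genes. AURKB, the kinase of the chromosomal passenger complex that KIF20A moves, fell from 15.9 ± 0.764 to 10.2 ± 0.632 CPM (-0.64, adjusted p = 2.07e-06). Its complex partners did not move together: BIRC5 (-0.38) and CDCA8 (-0.30) fell, but the more abundant INCENP rose from 562 ± 48.1 to 668 ± 38.5 CPM. INCENP (0.25, adjusted p = 0.00308) and ANLN (0.38, adjusted p = 2.50e-04) were the 2 genes that rose. The checkpoint kinase TTK fell from 21.8 ± 1.22 to 14.6 ± 0.542 CPM (-0.58, adjusted p = 1.74e-06), the kinetochore protein SPC24 from 74.6 ± 4.59 to 54.7 ± 3.96 CPM (-0.45, adjusted p = 4.92e-06) and the spindle pole protein ASPM from 450 ± 26.8 to 335 ± 13.5 CPM (-0.43, adjusted p = 2.81e-06). Proteins that act beside the uncalled KIF4A and KIF23 were not called either: PRC1 had a log2 fold change of 0.0036 and RACGAP1 of -0.07. CIT, the partner of KIF14, was not called (-0.05, adjusted p = 0.514), nor was the kinesin CENPE, whose name the rule does not match (0.05, adjusted p = 0.599). These 4 partners were picked for their known links, with their values in view.

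Regulators of the G2 and M phases fell in 9 of 15 genes and rose in 2 (median -0.26), with 73.3% called against 39.5% of all tested genes. In absolute size the median change was 0.26, as it was over all tested genes. MYBL2, a transcription factor that binds such promoters with the MuvB complex, fell from 622 ± 46.3 to 472 ± 37.2 CPM (-0.40, adjusted p = 3.16e-05). The cyclins CCNA2 and CCNB1 fell by 0.38 and 0.33 on the log2 scale (adjusted p = 2.05e-04 and 4.20e-04). The MuvB subunit LIN37 fell by 0.56 (adjusted p = 0.00124), and 54.0% of its exonic bases are shared with AC002398.11. The 2 that rose were CDK1 (0.23, adjusted p = 0.0173), whose groups overlapped, and LIN54 (0.16, adjusted p = 0.0235), and 0 rose with upper quartile scaling.

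The AP-1 complex and other partners of KIF13A gave 2 genes that rose and 1 that fell of 11 tested (median 0.03). The 27.3% called is below the 39.5% of all tested genes. The AP-1 subunit AP1S1 fell from 19.7 ± 0.599 to 12.5 ± 0.857 CPM (-0.66, adjusted p = 4.93e-07). AP1M1, another subunit, rose from 27.4 ± 1.21 to 35.1 ± 1.21 CPM (0.36, adjusted p = 7.98e-05). RAB11A, the small GTPase of recycling endosomes, rose from 121 ± 1.53 to 168 ± 7.85 CPM (0.48, adjusted p = 1.98e-07).

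**Figure D5:**
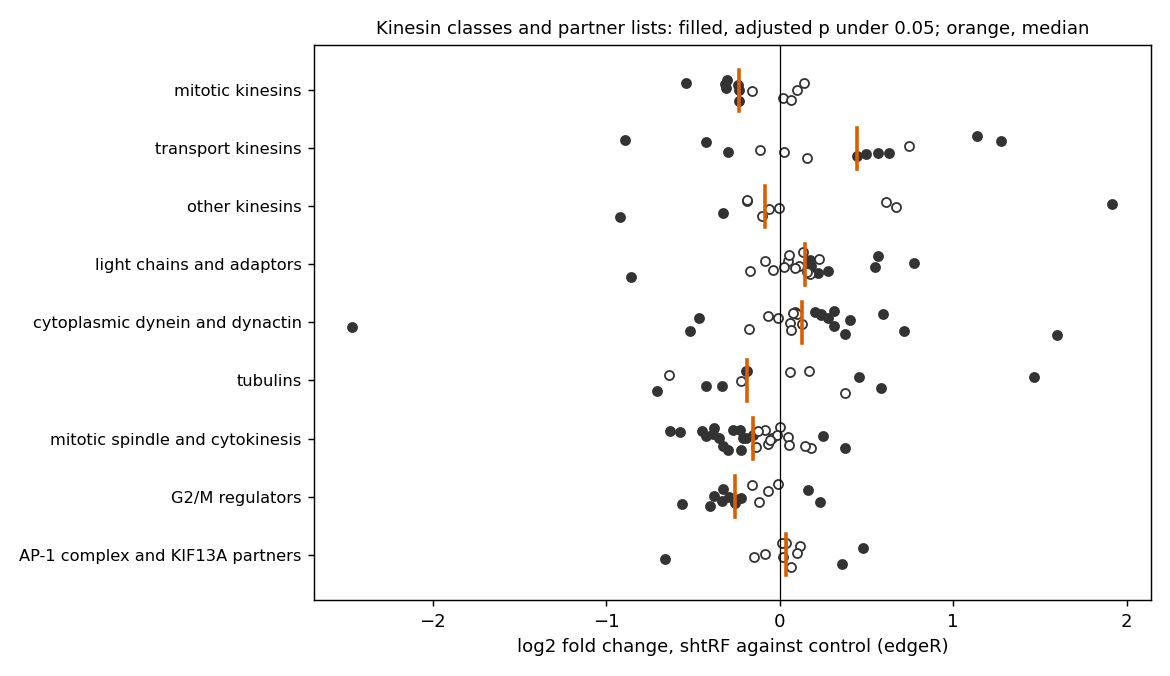
Log2 fold change (shtRF over control) of each tested gene in the 3 kinesin classes and the 6 partner lists, with filled points for called genes and a bar at the median of each list. The medians run from -0.26 for the G2/M regulators to 0.45 for the transport kinesins. The vertical line at 0 marks no change.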

How the data were processed

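RNA was sequenced as read pairs from stranded mRNA libraries (n = 3 per group, groups from the sample titles). The authors deposited raw read counts per gene with exon coordinates and exonic lengths. The submitters' processing notes name Trimmomatic 0.36, featureCounts, Subread 1.5.1, edgeR 3.12.1 and the build GRCh38. The aligner is not given in the sources used here. Even numbers made up 74.2% to 77.1% of the counts from 1 to 4, and 49.7% to 50.7% of those of 1000 and over, as counting both mates of a pair would give. Overlaps of exons between genes were computed irrespective of strand, because the strand setting of the counting is not stated. The authors also deposited RPKM values: in the part used here, values of 4991 of 4997 genes could be matched and 100% equalled count divided by length and library total within 0.1%, so RPKM was recomputed for all genes.

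Counts were fitted with edgeR 4.0.16 (R 4.3.3): filterByExpr (minimum count 10), TMM factors (0.961 to 1.03), glmQLFit and glmQLFTest without covariates beside the group, and Benjamini-Hochberg adjustment over 19628 genes. CPM uses the TMM factors and RPKM does not. The factors were 1.01 to 1.03 in control and 0.961 to 1.01 in shtRF, so RPKM sets shtRF slightly lower against control than CPM does. KIF4A, for instance, went from 26.8 to 26.2 RPKM but from 119 to 121 CPM. Shares of a pair within a library are not affected. Standard errors and 95% intervals come from the estimate and its F statistic. The fit was tested on simulated data in which few genes changed, each by at least 2-fold, so this run does not cover smaller changes or changes in many genes. Of 163 list entries 162 matched, 2 of them by an older symbol, and 1 further marker is not reported here. Members and lists were chosen with earlier results of these data known. Values per library are given for the 12 mitotic kinesins, KIF13A and other called kinesins with at least 2 CPM, and up to 4 called genes with the largest change are named per partner list. The alternatives were DESeq2 1.42.0, scaling by RLE or by the upper quartile, halved counts, no filter or 10 counts required in every library, a replicate block and leaving out each library. Protein sequences were not analysed here.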

Additional observations from a re-analysis of the deposited data

How the results depend on the processing

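Of 286 values of 22 named kinesins under 13 alternatives, 279 kept their direction and their side of the threshold, and 16 of the 17 called were called in every fit (the exception was KIF2A). KIF4A turned negative with upper quartile scaling (-0.017), and lay between -0.034 and 0.078 when 1 library was left out. The median of the transport kinesins was 0.29 with 10 counts required in every library and 0.29 with halved counts, and 0.19 to 0.47 when 1 library was left out. KIF5A, which was not called and had few counts, was not tested with 10 counts required or with halved counts. The median then lay between KIFC2 and KIF1C. Without shtRF replicate 2 KIF5A was at -0.088. The G2/M regulators called higher were 1 with no filter, 0 with upper quartile scaling and 0 to 2 when 1 library was left out. Leaving out 1 library gave 0 to 1 kinesins called over 2-fold lower (KIF7, without control replicate 3 or without shtRF replicate 2), 0 to 1 mitotic kinesins called higher, 3 to 5 tubulins called higher and 2 to 5 lower, and 2 to 4 spindle genes called higher. Apart from the part of KIF5A in the transport median, the cause was not tested in these cases. Same-numbered libraries did not deviate together (correlations 0.06, 0.02 and 0.02), and with the replicate block 8 kinesins were higher and 13 lower, with medians of -0.23 for mitotic and 0.44 for transport kinesins. KIFC2 was the added call (adjusted p = 0.0353), and it was also called without control replicate 1 (0.0128), and KIF1B was called lower with upper quartile scaling (0.0409). Genes under 2 CPM rest on few counts, and if both mates were counted the independent fragments were fewer still.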
